A study of Mus musculus with 4 samples.

Results

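The genes described here form the junctions and carriers of the blood-brain barrier. They are 10 genes taken by symbol, Cldn5, Ocln, Tjp1, Plvap, Mfsd2a, Slc2a1, Slc7a5, Abcb1a, Slco1a4 and Slco1c1, out of 31253 genes in the count tables, and all 10 were found. RNA was counted in single cells of the ischemic-side hemisphere of adult mouse brains at day 3 of a stroke model, tMCAO, or transient occlusion of the middle cerebral artery, in which flow is stopped and then restored. Ms4a3 cKO libraries (n = 2) came from mice labelled Htr2b ERCre; Ms4a3-Cre, and Flox control libraries (n = 2) from Htr2b flox/flox littermates. Both were of the strain label C57B6, male and/or female, and the mice were given tamoxifen and left for 3 days before surgery. Recombination was meant to be myeloid-specific, since Ms4a3 marks progenitors of granulocytes and monocytes, so the barrier cells described here were not the cells aimed at. The labels do not give the number of mice per library, so the spread between the libraries of a group may be partly technical.

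The cells that line brain capillaries are sealed to each other by tight junctions, have few transport vesicles and no fenestrae, and move nutrients and waste through dedicated carriers. These properties are kept by Wnt signalling from neighbouring cells and by contact with pericytes and astrocyte end-feet. After ischemia the barrier is known to become leaky. Cldn5 (a claudin) and Ocln (occludin) are membrane proteins of the tight junction, and Tjp1 encodes the scaffold ZO-1 beneath them. Plvap forms the diaphragms of fenestrae and caveolae, and its appearance in brain endothelium is a known mark of a less tight barrier. Mfsd2a carries lysophosphatidylcholine with its fatty acid and restrains vesicle transport. Slc2a1 is the glucose carrier GLUT1, and Slc7a5 is the light chain of a carrier for large neutral amino acids. Abcb1a encodes P-glycoprotein, which pumps drugs back to the blood. Slco1a4 and Slco1c1 are organic anion carriers, and Slco1c1 brings thyroxine into the brain.

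By GENCODE's gene models for GRCm38 (mm10), Cldn5 lies on chromosome 16 from 18776847 to 18778262 on the plus strand. Ocln lies on chromosome 13 from 100496507 to 100552718 and Tjp1 on chromosome 7 from 65296165 to 65527781, both on the minus strand. Plvap lies on chromosome 8 from 71497765 to 71511752 and Slc7a5 on chromosome 8 from 121881150 to 121907694, both on the minus strand. Mfsd2a spans 122946850 to 122961188 of chromosome 4 on the minus strand, and Slc2a1 spans 119108711 to 119137983 of the same chromosome on the plus strand. Abcb1a lies on chromosome 5 from 8660077 to 8748575 on the plus strand. Slco1a4 (141805440 to 141856199, minus strand) and Slco1c1 (141524368 to 141570177, plus strand) are neighbours on chromosome 6. Exons of Slc2a1 share 105 bases with the antisense gene Gm12868, which is also in the files, and the counting is not stated to use strand, so reads from those bases cannot be assigned with certainty. Abcb1a has the close paralog Abcb1b, which was counted as a gene of its own.

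The 4 libraries held between 77580518 and 105566650 UMIs (unique molecular identifiers, 1 per captured RNA molecule), and 59554 cells were kept. Endothelial cells, named from 15 marker genes that include none of the 10, numbered 1749 and 1833 in Ms4a3 cKO and 146 and 881 in Flox control, with median depths of 2208 and 2135 UMIs per cell in Ms4a3 cKO and 3203.5 and 2407 in Flox control. They were 11.7 and 11.98% of the Ms4a3 cKO libraries and 1.10 and 5.46% of the Flox control libraries. Flox control 1 therefore rests on 146 cells, and 109 of these fell into 1 subtype, so results are also given by subtype and without that library where it matters. Htr2b, the targeted gene, was at 7.63 and 11.4 CPM (UMI counts of a gene, scaled to the same total of UMIs in the summed cells of each library) in Ms4a3 cKO monocyte-macrophages and at 29.2 and 29.9 CPM in those of Flox control. In endothelial cells Htr2b was at 4.29 and 3.72 CPM in Ms4a3 cKO and at 1.81 and 29.1 CPM in Flox control. Class and subtype names were rebuilt from markers and are not the authors' own, and each stands for cells like that type.

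Slco1a4, Slco1c1, Abcb1a and Slc7a5 were most abundant in capillary-like endothelial cells and in an interferon-like subtype, and lower in angiogenic-like cells. Slc2a1 departed from this in Flox control 2, where capillary-like cells were below arterial-like cells. Plvap was not detected in capillary-like or interferon-like cells. It was seen, among other cells, in angiogenic-like and choroid plexus endothelial-like cells. Sub-clustering was done without any of the 10 genes, but genes that vary with them were used, so the levels by subtype are a description with no test. Subtypes are given at sub-clustering resolution 1, and the angiogenic-like and interferon-like groups depend on it. At resolution 0.5 the angiogenic-like group held 313 and 234 cells of Ms4a3 cKO and 10 and 223 of Flox control. No sub-cluster was then named interferon-like. The one led by Rsad2 and Ifit3b was also led by Abcc9 and Rgs5 of pericytes and stayed unnamed. It held 69 and 115 cells of Ms4a3 cKO and 110 and 205 of Flox control. The capillary-like cells numbered 386 and 514 in Ms4a3 cKO and 11 and 37 in Flox control. The interferon-like cells, led by Rsad2, Ifit3b, Cxcl10 and Ifit1, numbered 74 and 202 in Ms4a3 cKO and 109 and 208 in Flox control. The other named subtypes were arterial-like (87 and 122 in Ms4a3 cKO, 0 and 19 in Flox control), venous or activated (415 and 272 against 1 and 71), angiogenic-like (34 and 7 against 3 and 168), cycling (16 and 25 against 0 and 14) and choroid plexus endothelial-like (6 and 7 against 0 and 4). A further 731 and 684 cells of Ms4a3 cKO and 22 and 360 of Flox control lay in sub-clusters that stayed unnamed. Of the 7 unnamed sub-clusters, some were led by genes of other cells, such as S100a8 and S100a9 of neutrophils, Abcc9 and Vtn of pericytes or Ttr of the choroid plexus.

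**Figure D1:**
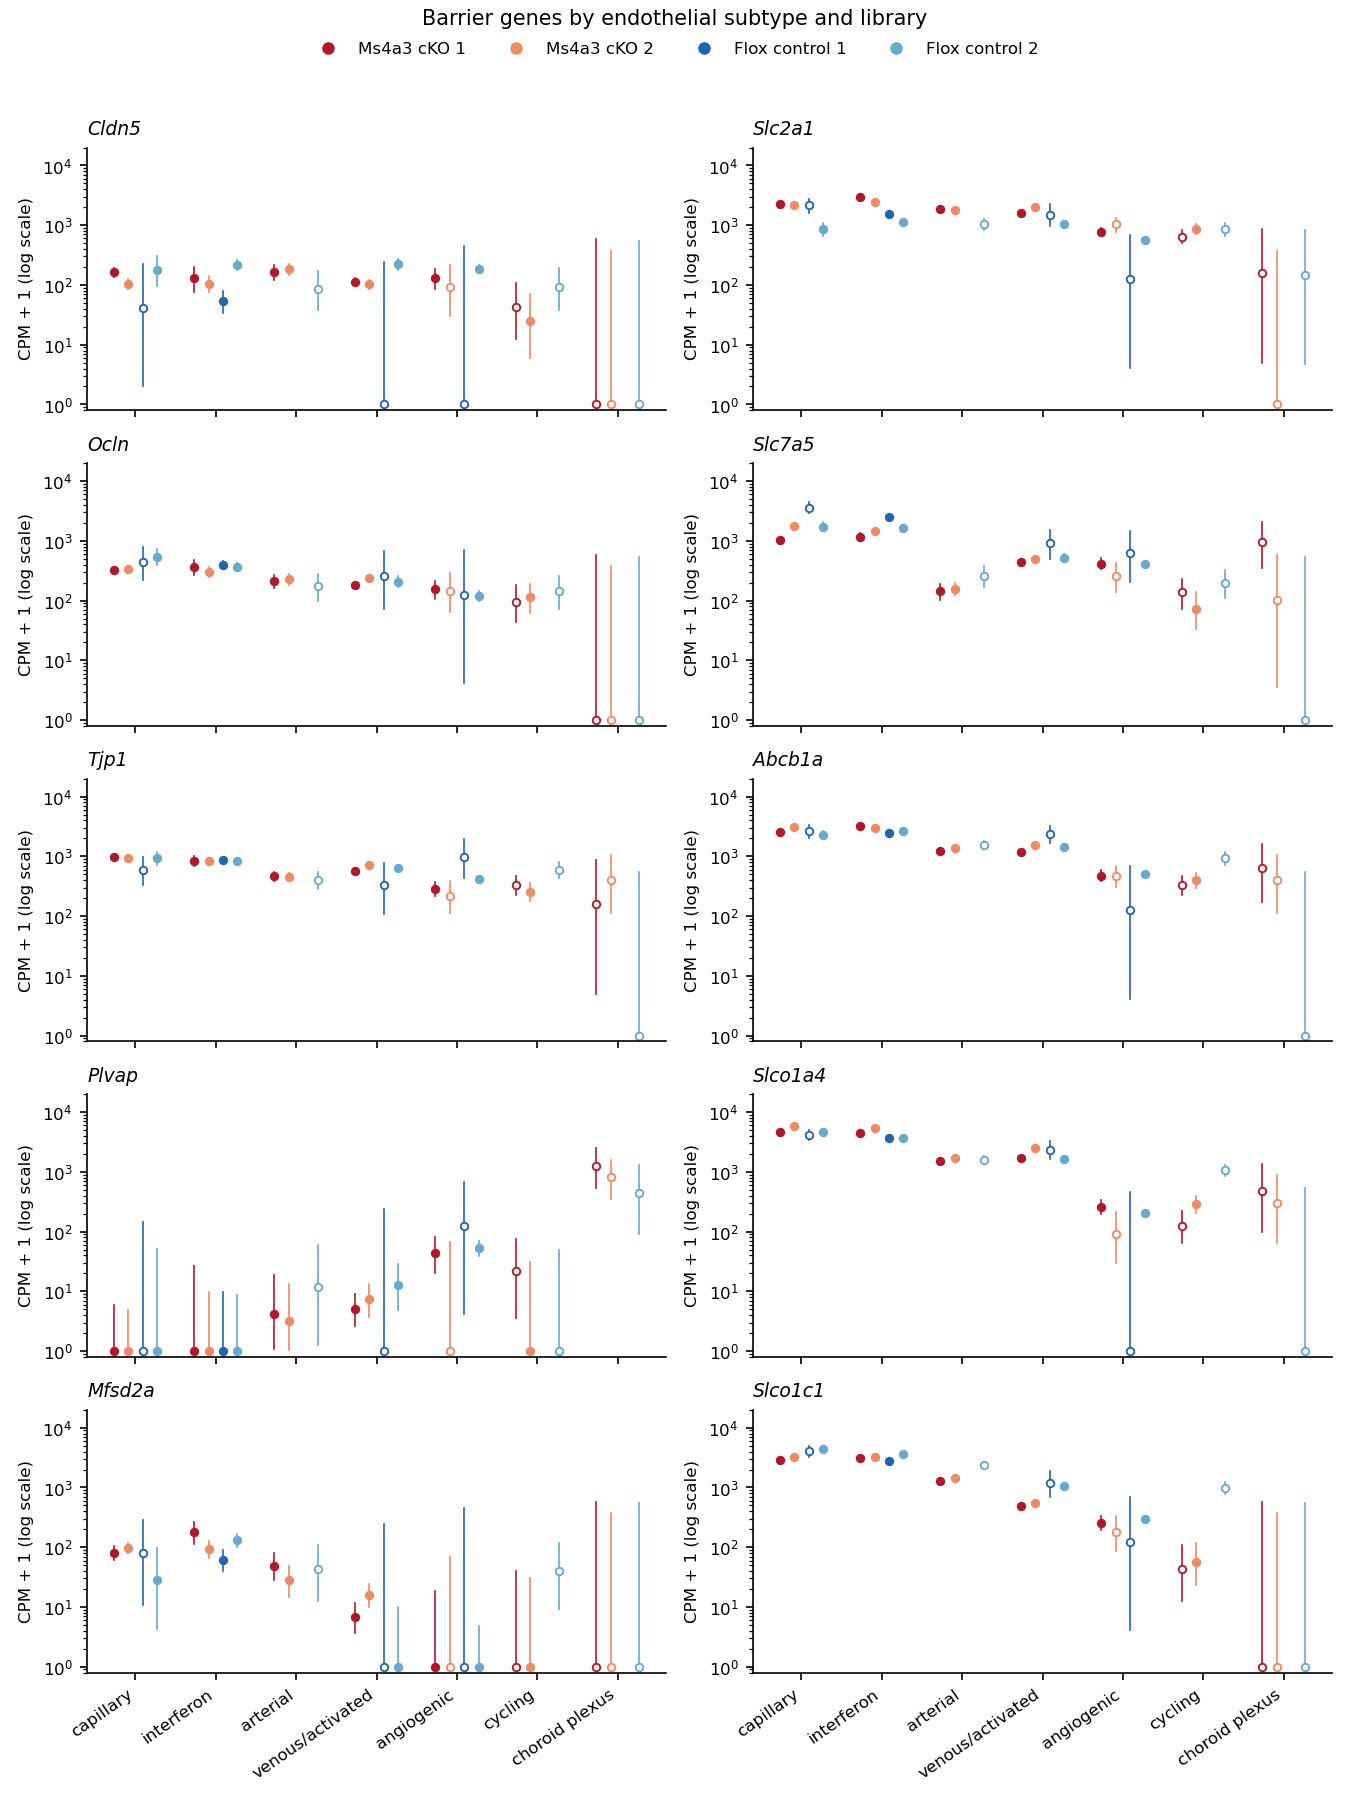
Level of each gene as CPM + 1 on a log axis, by endothelial subtype (x axis) and library (colour), with exact 95% Poisson intervals that cover counting error only; open circles mark fewer than 20 cells. Slco1a4 reaches between 3724 and 5945 CPM in capillary-like and interferon-like cells and at most 262.3 CPM in angiogenic-like cells, while Plvap has no UMI in the first 2 and reaches between 442 and 1253 CPM in choroid plexus endothelial-like cells.

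Slco1a4 was at 4708 and 5945 CPM in capillary-like cells of Ms4a3 cKO and at 4171 and 4662 CPM in those of Flox control. It was at 1504 and 1680 CPM in arterial-like cells of Ms4a3 cKO and at 1587 CPM in Flox control 2, and at 262.3 and 90.4 CPM in angiogenic-like cells of Ms4a3 cKO against 0 and 203 CPM in Flox control. Capillary-like cells were the highest of these. At resolution 0.5 angiogenic-like cells had 1178 and 1567 CPM of Slco1a4 in Ms4a3 cKO and 1371 and 465 CPM in Flox control, which overlaps arterial-like cells (1408 and 1755 CPM in Ms4a3 cKO, 1739 CPM in Flox control 2) but stays below capillary-like cells (3605 CPM or more). Slco1c1 followed the same order, with 2923 and 3198 CPM in capillary-like cells of Ms4a3 cKO and 4012 and 4392 CPM in those of Flox control. Venous or activated cells had 484 and 557 CPM of Slco1c1 in Ms4a3 cKO and 1176 and 1049 CPM in Flox control, where Flox control 1 is a single cell. Arterial-like cells lay between, at 1272 and 1426 CPM in Ms4a3 cKO and 2348 CPM in Flox control 2. So Slco1c1 was higher in arterial-like than in venous or activated cells in each of the 3 libraries with both, while the order of these subtypes for Slco1a4 turned in Flox control 2 with the resolution (1668 CPM in venous or activated and 1587 CPM in arterial-like cells at resolution 1, 1629 and 1739 CPM at resolution 0.5).

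The sequences before the starts of the neighbouring carriers are shown because their genes were both high in capillary-like cells but differed outside the endothelium. They are the 250 bases before the RefSeq start on GRCm38.p6, at chr6:141856221-141856470 (minus strand) for Slco1a4 and chr6:141524104-141524353 (plus strand) for Slco1c1, written 5′ to 3′ on the gene's strand, with SOX core motifs (ATTGT, either strand) in capitals.
Slco1a4: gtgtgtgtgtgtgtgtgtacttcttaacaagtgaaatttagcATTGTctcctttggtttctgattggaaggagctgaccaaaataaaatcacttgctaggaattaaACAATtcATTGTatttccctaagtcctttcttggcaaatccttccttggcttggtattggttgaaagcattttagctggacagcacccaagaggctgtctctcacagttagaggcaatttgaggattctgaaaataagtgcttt
Slco1c1: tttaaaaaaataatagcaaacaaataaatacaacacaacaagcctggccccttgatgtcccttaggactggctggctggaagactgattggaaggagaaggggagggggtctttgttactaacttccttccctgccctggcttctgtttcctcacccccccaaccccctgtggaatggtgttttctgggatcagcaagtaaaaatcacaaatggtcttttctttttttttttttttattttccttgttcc
The window of Slco1a4 held the SOX letters 3 times and that of Slco1c1 held none of the 3 motifs searched, ATTGT for SOX factors, CTTTGA for TCF/LEF factors and CGGAAG for ETS factors. Among 32851 RefSeq promoter windows of this length, 27.7% held ATTGT, 13.8% CTTTGA and 13.6% CGGAAG on either strand. A window was found for 8 of the 10 genes, not for Plvap and Slc7a5. CTTTGA was in the windows of Mfsd2a and Abcb1a, and CGGAAG in that of Tjp1. The window of Abcb1a (chr5:8566841-8567090) does not adjoin the GENCODE start of the gene at 8660077. That of Tjp1 (chr7:65371245-65371494) lies within the GENCODE gene, which ends at 65527781. Both windows therefore belong to RefSeq starts other than the ends of the gene models given above.

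Abcb1a, the efflux pump, was at 2572 and 3102 CPM in capillary-like cells of Ms4a3 cKO and at 2662 and 2284 CPM in those of Flox control. In angiogenic-like cells it was at 477 and 469.9 CPM in Ms4a3 cKO and at 124 CPM (1 UMI) and 497 CPM in Flox control, below every capillary-like value. Slc7a5 was high in the same cells, at 1047 and 1765 CPM in capillary-like cells of Ms4a3 cKO and 3575 and 1730 CPM in those of Flox control, and low in arterial-like cells, at 142 and 157 CPM in Ms4a3 cKO and 257 CPM in Flox control 2. Slc2a1, the glucose carrier, varied less between vessel types. It was at 2299 and 2179 CPM in capillary-like cells of Ms4a3 cKO and at 2145 and 865 CPM in those of Flox control, and at 1871 and 1832 CPM in arterial-like cells of Ms4a3 cKO and 1040 CPM in those of Flox control 2. In arterial-like and in venous or activated cells it stayed above 1000 CPM in each library, and in angiogenic-like cells it was at 777 and 1030.2 CPM in Ms4a3 cKO and at 124 CPM (1 UMI) and 571 CPM in Flox control. At resolution 0.5 angiogenic-like cells had 1676 and 2112 CPM of Slc2a1 in Ms4a3 cKO and 1269 and 668 CPM in Flox control. These values overlap those of arterial-like cells (1819 and 1747 CPM in Ms4a3 cKO, 1015 CPM in Flox control 2).

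Among the junction genes, Tjp1 and Ocln were higher in capillary-like than in arterial-like cells, and Cldn5 showed no such order. Tjp1 was at 991 and 949.6 CPM in capillary-like cells of Ms4a3 cKO and at 596 and 932 CPM in those of Flox control, against 464 and 452 CPM in arterial-like cells of Ms4a3 cKO and 397 CPM in those of Flox control 2. Ocln was at 323 and 332 CPM in capillary-like cells of Ms4a3 cKO and at 437 and 541 CPM in those of Flox control, against 209 and 225 CPM in arterial-like cells of Ms4a3 cKO and 172 CPM in Flox control 2. Cldn5 was at 162 and 104 CPM in capillary-like cells of Ms4a3 cKO and at 39.7 CPM (1 UMI) and 176 CPM in those of Flox control. In arterial-like cells Cldn5 was at 164 and 182 CPM in Ms4a3 cKO and 85.8 CPM in Flox control 2, a range that overlaps the capillary-like one.

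Plvap, the diaphragm gene, had no UMI in the 948 capillary-like cells or in the 593 interferon-like cells. With 3 UMIs as the limit that a count of 0 allows, this permits up to 3.94 and 3.18 CPM in capillary-like cells of Ms4a3 cKO and up to 119 and 40.5 CPM in those of Flox control. In angiogenic-like cells, led by Pgf, Apln and Trp53i11, Plvap was at 42.9 CPM (9 UMIs) and 0 CPM in Ms4a3 cKO and at 124 CPM (1 UMI) and 52.1 CPM (51 UMIs) in Flox control. At resolution 0.5 it had 23 and 8 UMIs there in Ms4a3 cKO and 1 and 58 in Flox control. Venous or activated cells then had 7 and 8 Plvap UMIs in Ms4a3 cKO and 0 and 2 in Flox control. Arterial-like cells had 1 in each library that held them, and capillary-like cells had 1, in Flox control 2. The 17 choroid plexus endothelial-like cells, a fenestrated vessel type, had 8 and 8 Plvap UMIs (1253 and 815 CPM) in Ms4a3 cKO and 3 UMIs (442 CPM) in Flox control 2. The same 17 cells had no UMI of Cldn5, Ocln, Mfsd2a or Slco1c1, and Slc2a1 had 1, 0 and 1 UMIs. The depth there allows up to 469.8 and 305.7 CPM of such a gene in Ms4a3 cKO and 442 CPM in Flox control 2, below the level of Slco1c1 in capillary-like cells. It is above the mean levels of Cldn5 and Mfsd2a there, so a difference in these was not detectable at this depth. For Ocln it is above the capillary-like level in Ms4a3 cKO 1 and below it in Ms4a3 cKO 2 and Flox control 2.

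Mfsd2a was at 80.2 and 96.5 CPM in capillary-like cells of Ms4a3 cKO and at 79.5 and 27.03 CPM (2 UMIs each) in those of Flox control. In venous or activated cells it was at 5.69 and 15.1 CPM in Ms4a3 cKO and had no UMI in Flox control, and angiogenic-like cells had none in any library. At resolution 0.5 angiogenic-like cells had 32 and 10 UMIs of Mfsd2a in Ms4a3 cKO (23.7 and 9.96 CPM) and 1 and 4 UMIs in Flox control (20.5 and 3.30 CPM). Mfsd2a was therefore below the capillary-like values in the venous or activated cells of both Ms4a3 cKO libraries. Its promoter window at chr4:122961189-122961438 (minus strand), with the TCF/LEF letters in capitals, is shown because Wnt signalling through TCF/LEF factors is known to maintain the barrier program.
Mfsd2a: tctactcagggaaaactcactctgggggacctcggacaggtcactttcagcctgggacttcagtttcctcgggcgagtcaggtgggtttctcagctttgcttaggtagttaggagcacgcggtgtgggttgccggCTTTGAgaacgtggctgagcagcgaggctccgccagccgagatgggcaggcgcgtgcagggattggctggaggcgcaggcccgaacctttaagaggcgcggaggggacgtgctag
The match is a description of the letters alone.

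Next the genotypes were compared in endothelial cells as a whole, by summing UMIs per library. None of the 10 barrier genes was called, and no gene of the 11313 tested passed (0%, edgeR's quasi-likelihood test, Benjamini-Hochberg adjusted p under 0.05), with 756 at an unadjusted p under 0.05, none of them a barrier gene. DESeq2 called 55 genes (0.486%), again none of the 10. The median log2 fold change of the 10, Ms4a3 cKO over Flox control, was -0.18, with 3 positive and 7 negative, beside a median of -0.01 over all genes, of which 49.1% were positive. In 1 of the 10, Slc2a1, both Ms4a3 cKO libraries lay above both Flox control libraries, and in 0 of the 10 both lay below, beside 21.8 and 17.1% of all genes tested.

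Slc2a1 was at 1798 and 1982 CPM in endothelial cells of Ms4a3 cKO, against 1541 and 851 CPM in Flox control. Its log2 fold change was 0.61 ± 0.37 (SE; edgeR adjusted p = 0.854, n = 2 each), and leaving out Flox control 1 gave 1.19, leaving out Flox control 2 gave 0.20, with no call in either. The groups did not overlap, but the Flox control libraries lay further from each other than Flox control 1 lay from Ms4a3 cKO 1. Slc7a5 was at 564 and 833 CPM in Ms4a3 cKO, against 2295 and 752 CPM in Flox control, a log2 fold change of -1.19 ± 0.57 (edgeR adjusted p = 0.796). Flox control 1, the library of 146 endothelial cells, stood apart and the groups overlapped. Without Flox control 1 the log2 fold change of Slc7a5 was -0.07. Slco1c1 was at 1237 and 1605 CPM in Ms4a3 cKO, against 2648 and 1567 CPM in Flox control (log2 fold change -0.62 ± 0.36, edgeR adjusted p = 0.849). Without Flox control 1 the log2 fold change of Slco1c1 was -0.10, and leaving out Flox control 2 gave -0.997. Plvap was at 8.77 and 4.66 CPM in Ms4a3 cKO, against 1.81 CPM (1 UMI) and 24.9 CPM in Flox control (log2 fold change -1.36 ± 0.72, edgeR adjusted p = 0.830). Its direction rested on Flox control 2: without that library the log2 fold change was 1.77. Angiogenic-like cells, where Plvap was seen, numbered 34 and 7 in Ms4a3 cKO and 3 and 168 in Flox control, and their part in this difference was not tested.

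The remaining 6 genes had log2 fold changes between -0.40 (Ocln) and 0.06 (Slco1a4), with standard errors between 0.28 and 0.47. Cldn5 was at 129 and 121 CPM in Ms4a3 cKO, against 48.9 and 178 CPM in Flox control. Ocln was at 226 and 242 CPM in Ms4a3 cKO, against 389 and 216 CPM in Flox control. Tjp1 was at 621 and 687 CPM in Ms4a3 cKO, against 869 and 599 CPM in Flox control. For these 3 junction genes the values of Ms4a3 cKO lay within the range of Flox control. Abcb1a was at 1516 and 1933 CPM in Ms4a3 cKO, against 2336 and 1323 CPM in Flox control, and Slco1a4 at 2254 and 3261 CPM against 3409 and 1682 CPM. Mfsd2a was at 33.8 and 49.4 CPM in Ms4a3 cKO, against 54.3 and 33.6 CPM in Flox control.

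Shares of cells with a UMI gave a like picture once each cell was thinned to 1000 UMIs, which left out 246 and 252 cells of Ms4a3 cKO and 9 and 179 of Flox control. Slc2a1 was then seen in 79.4 and 83.0% of Ms4a3 cKO cells and in 74.5 and 55.3% of Flox control cells, and before thinning in 88.5 and 90.6% against 90.4 and 71.6%. Cldn5 was seen in 12.8 and 10.2% of thinned Ms4a3 cKO cells and in 3.65 and 15.2% of Flox control cells, and before thinning in 27.04 and 25.3% against 16.4 and 33.6%. In microglia, which should lack Cldn5, 0.131 and 0.133% of Ms4a3 cKO cells and 0.0372 and 0.140% of Flox control cells had a UMI of it, at median depths of 5060 and 5894 UMIs per cell in Ms4a3 cKO and 6523 and 6407 in Flox control.

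**Figure D2:**
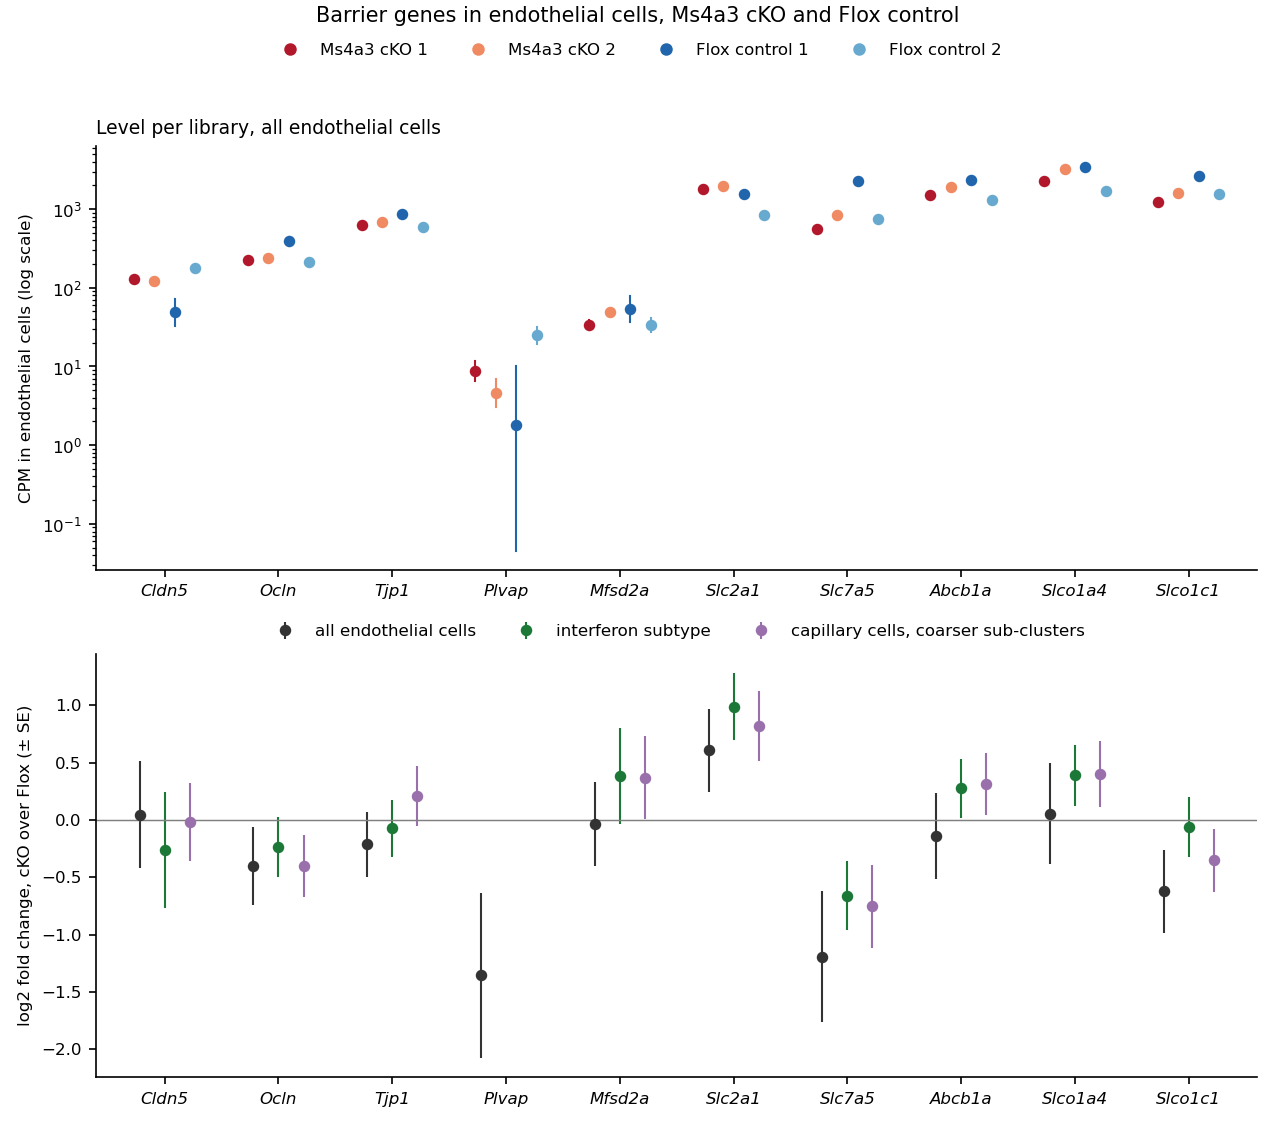
Top, level of each gene in all endothelial cells as CPM on a log axis, 1 point per library with its exact 95% Poisson interval. Bottom, log2 fold change of Ms4a3 cKO over Flox control with its SE from edgeR, for all endothelial cells, the interferon-like subtype and capillary-like cells of coarser sub-clusters; Slc2a1 is at 0.61, 0.99 and 0.82 and Slc7a5 at -1.19, -0.66 and -0.75, and none of these passed the adjusted threshold.

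At sub-clustering resolution 1 the interferon-like subtype was the only one with at least 20 cells in each of the 4 libraries. It allowed a comparison within 1 sub-cluster, which was named only at that resolution. Slc2a1 was at 3022 and 2420 CPM in Ms4a3 cKO, against 1567 and 1126 CPM in Flox control. The groups did not overlap, and the log2 fold change was 0.99 ± 0.29 (SE; edgeR adjusted p = 0.229), which did not pass. Without Flox control 1 it was 1.31 ± 0.26 with an edgeR adjusted p of 9.25e-05, and that fit was the only alternative of 10 in which it was called. Slc7a5 was at 1154 and 1461 CPM in Ms4a3 cKO, against 2455 and 1613 CPM in Flox control, a log2 fold change of -0.66 ± 0.31 (edgeR adjusted p = 0.478), and -0.25 without Flox control 1. The glucose and the amino acid carrier thus differed in opposite directions between the same libraries, and neither difference passed.

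None of the 9 barrier genes tested in the interferon-like subtype was called, where 35 of 6032 genes (0.58%) were. Both Ms4a3 cKO libraries lay above both Flox control libraries for Slc2a1, Abcb1a and Slco1a4, and below them for Ocln, Tjp1 and Slc7a5, which is 3 of 9 in each direction beside 21.4 and 21.7% of all genes. Abcb1a was at 3284 and 3010 CPM in Ms4a3 cKO, against 2476 and 2675 CPM in Flox control (log2 fold change 0.28 ± 0.26). Slco1a4 was at 4416 and 5432 CPM in Ms4a3 cKO, against 3726 and 3724 CPM in Flox control (log2 fold change 0.39 ± 0.27). Tjp1 was nearly level, at 835 and 829 CPM in Ms4a3 cKO, against 880.3 and 849 CPM in Flox control. Slco1c1 was at 3065 and 3195 CPM in Ms4a3 cKO, against 2817 and 3705 CPM in Flox control. The summed CPM of 10 microglial markers in these cells was 2244 and 1910.1 in Ms4a3 cKO and 3056 and 4243 in Flox control, and that of 10 oligodendrocyte markers 2916 and 3590 against 1019 and 1435. No microglial marker was at 0 in every library. The part of this RNA in the differences was not tested.

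Capillary-like cells of coarser sub-clusters (sub-clustering resolution 0.5; 669 and 851 cells of Ms4a3 cKO, 21 and 128 of Flox control) were added as a comparison after cell numbers were seen. Slc2a1 was at 2322 and 2223 CPM in Ms4a3 cKO, against 1787 and 1033 CPM in Flox control (log2 fold change 0.82 ± 0.31, edgeR adjusted p = 0.654). Slc7a5 was at 1035 and 1637 CPM in Ms4a3 cKO, against 3309 and 1626 CPM in Flox control (log2 fold change -0.75 ± 0.36, edgeR adjusted p = 0.722). None of 9 barrier genes was called, where 4 of 7822 genes (0.0511%) were, and DESeq2 likewise called none, where it called 0.102% of genes.

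Other genes of the barrier were read from 5 lists in all endothelial cells, and none of their members passed. Of 24 further junction genes 19 were tested, with a median log2 fold change of -0.06, and the smallest p values were those of Ctnnb1, Cgnl1, Jup and Cdh5. Ctnnb1, encoding β-catenin of adherens junctions and Wnt signalling, was at 854 and 913 CPM in Ms4a3 cKO, against 1954 and 1431 CPM in Flox control (log2 fold change -0.98 ± 0.28, edgeR adjusted p = 0.687). Cdh5, the endothelial cadherin, was at 540.5 and 435 CPM in Ms4a3 cKO, against 618 and 712 CPM in Flox control. Of 28 further carriers and receptors 26 were tested, with a median of -0.29, and Slc16a1, Slc38a5 and Slc5a3 were among those with the smallest p values. Slc16a1, the lactate and ketone carrier MCT1, was at 408 and 405 CPM in Ms4a3 cKO, against 1503 and 879 CPM in Flox control (log2 fold change -1.60 ± 0.34, edgeR adjusted p = 0.554). The groups did not overlap for Ctnnb1, Cdh5 or Slc16a1.

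All 13 genes of caveolae and vesicle traffic were tested, with a median log2 fold change of -0.08, and the smallest p values were those of Cd36, Ehd4, Cav1 and Vamp3. Cav1, the coat protein of caveolae, was at 267 and 445 CPM in Ms4a3 cKO, against 860.3 and 505 CPM in Flox control (log2 fold change -0.99 ± 0.39, edgeR adjusted p = 0.746). The 26 genes of Wnt signalling and barrier transcription factors had a median of -0.15, led by Sox7, Ctnnb1, Nr3c1 and Fzd6. Sox7 was at 39.2 and 42.7 CPM in Ms4a3 cKO, against 120 and 72.8 CPM in Flox control (edgeR adjusted p = 0.609). Of 21 hypoxia and angiogenic genes 19 were tested, with a median of -0.20, led by Aplnr, Cd34, Pgf and Tie1. Aplnr, the apelin receptor of sprouting cells, was at 2.24 and 0.559 CPM in Ms4a3 cKO, against 10.9 CPM (6 UMIs) and 34.0 CPM in Flox control (log2 fold change -4.16 ± 0.71, edgeR adjusted p = 0.457). Each list is described by its median beside -0.01 for all genes.

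Across the whole hemisphere the barrier genes were compared between 11 classes with at least 50 cells in every library. Endothelial cells had the highest mean CPM for 9 of the 10 genes, and the exception was Mfsd2a, whose ranges in astrocytes and endothelial cells overlapped. In both Ms4a3 cKO libraries Mfsd2a was higher in astrocytes (136 and 128 CPM) than in endothelial cells (33.8 and 49.4 CPM), and in both Flox control libraries it was lower in astrocytes (27.3 and 24.8 CPM) than in endothelial cells (54.3 and 33.6 CPM). For 8 of these 9 the 4 endothelial values lay above all values of the next class, and for Plvap they overlapped with those of oligodendrocytes (10.0 ± 10.3 and 4.85 ± 3.94 CPM; mean ± SD, n = 4). The margin was widest for Cldn5, at 119 ± 53.3 CPM in endothelial cells and 1.02 ± 1.28 CPM in the next class, neuroblasts or neurons. Tjp1 was the least confined of the junction genes, at 694 ± 123 CPM in endothelial cells, 184 ± 17.5 CPM in astrocytes and 161 ± 20.3 CPM in oligodendrocytes, and the values of the last 2 overlapped.

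**Figure D3:**
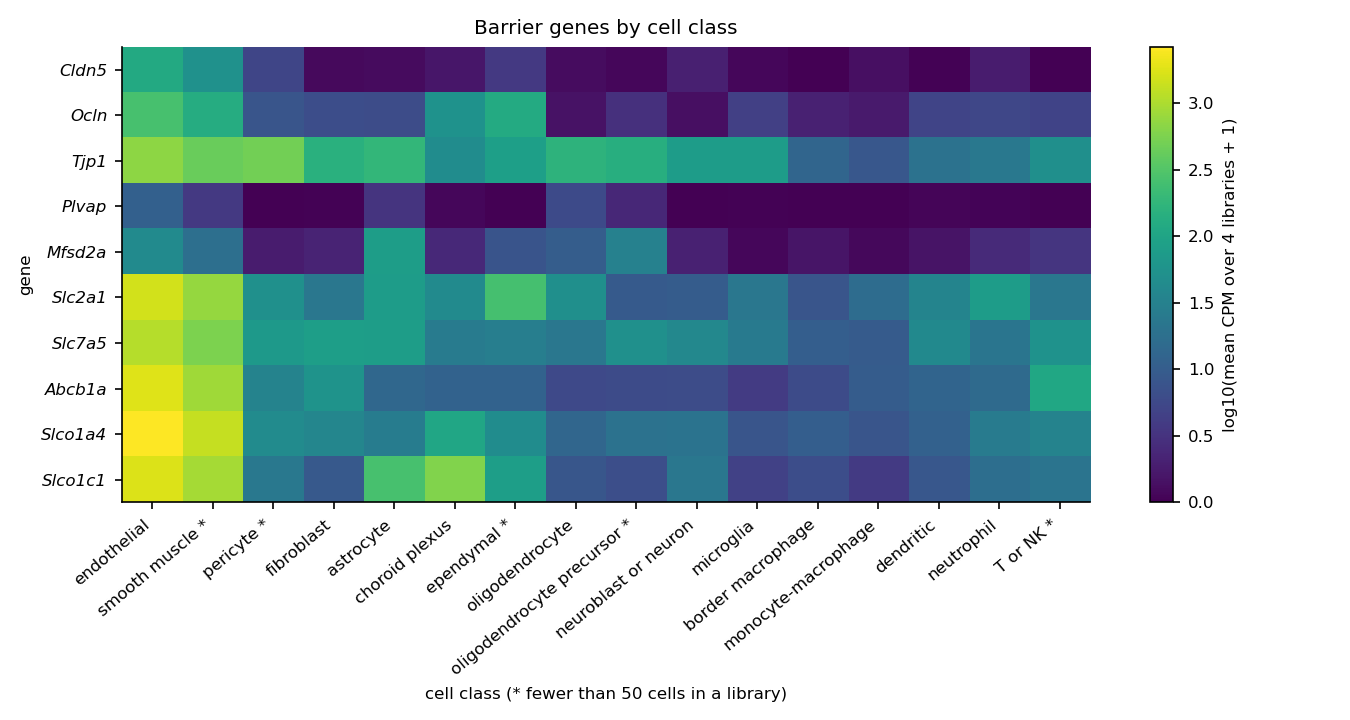
Mean CPM over the 4 libraries, as log10(mean CPM + 1) in colour, for each gene (rows) and cell class (columns); colours are to be compared along a row, since transcript length differs between genes. Endothelial cells hold the highest value in 9 rows, Mfsd2a has its highest mean in astrocytes (78.9 CPM, through the Ms4a3 cKO libraries), and Slco1c1 is also seen in choroid plexus (586 CPM) and astrocytes (268 CPM).

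The neighbouring anion carriers differed outside the endothelium. Slco1c1 was at 468 and 394 CPM in choroid plexus cells of Ms4a3 cKO and 847 and 634 CPM in those of Flox control, and at 241 and 289 CPM in astrocytes of Ms4a3 cKO and 279 and 263 CPM in those of Flox control. Slco1a4 in astrocytes was at 24.4 and 57.9 CPM in Ms4a3 cKO and 3.03 and 18.6 CPM in Flox control. To compare these levels with RNA that comes from endothelial cells, each was divided by the summed CPM of the 15 endothelial markers in the same cells and set against the same quotient in endothelial cells. Slco1c1 in astrocytes gave 23.3 and 13.4 in Ms4a3 cKO and 77.4 and 22.8 in Flox control, above the 1 that endothelial RNA alone would give. Slco1a4 in astrocytes gave 1.29 and 1.32 in Ms4a3 cKO and 0.65 and 1.502 in Flox control, close to that of endothelial RNA. Abcb1a in astrocytes gave 0.73 and 0.96 in Ms4a3 cKO and 1.43 and 1.36 in Flox control, also close to it.

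Ocln was also seen in choroid plexus epithelium, itself a barrier tissue with tight junctions, at 61.5 and 52.5 CPM in Ms4a3 cKO and 61.3 and 40.5 CPM in Flox control. The quotient to endothelial markers was 13.3 and 16.6 in Ms4a3 cKO and 30.0 and 11.1 in Flox control, above that of endothelial RNA in each library. In ependymal cells, with 27 and 19 cells of Ms4a3 cKO and 37 and 15 of Flox control, Slc2a1 was at 234 and 162 CPM in Ms4a3 cKO and at 389.7 and 252 CPM in Flox control, the highest outside the vessel wall. Cells of the smooth muscle class (173 and 268 in Ms4a3 cKO, 20 and 95 in Flox control) held 9456 and 9604 CPM of the 15 endothelial markers in Ms4a3 cKO and 18582 and 9435 CPM in Flox control. Their Slco1a4 quotient was 0.82 and 0.77 in Ms4a3 cKO and 1.08 and 0.73 in Flox control, near the 1 of endothelial RNA. Over the other genes but Plvap the quotient in this class lay between 0.46 (Mfsd2a) and 1.23 (Tjp1). Tjp1 in pericytes, themselves part of the vessel wall, was at 400.5 and 410.2 CPM in Ms4a3 cKO and 906 and 232 CPM in Flox control. Pericytes had 56.1 and 98.5 CPM of Slco1a4 in Ms4a3 cKO and 0 and 19.0 CPM in Flox control.

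The genes whose class means were most like those of each barrier gene were looked up over 11 classes and 12759 genes, as Pearson's r of log2(mean CPM + 1). The classes come from the same 4 libraries, so r is a description. Cldn5 was most like Gm9917, Arhgef15 and Sox17 (r = 0.997, 0.991 and 0.991), Ocln most like Slc16a4, Cutal and St6galnac2 (0.951 each), and Tjp1 most like Tspan9 and Nes (0.991 and 0.949). Mfsd2a was most like Colgalt2, Apln and Rapgef3 (0.947, 0.934 and 0.919), and Plvap most like Slc16a1, Caskin2 and Ddc (0.943, 0.938 and 0.932). Slc2a1 was most like Far2, Gm28529 and Sema3g (0.960, 0.934 and 0.924), Slc7a5 most like Notum, Lmo7 and Thap3 (0.948, 0.943 and 0.939), and Abcb1a most like Emcn, Foxl2 and Fmo2 (0.980, 0.979 and 0.973). Slco1a4 was most like Paqr5, Bcam and Rgs5 (0.988, 0.975 and 0.973), and Slco1c1 most like Ccdc141 and Myrip (0.978 and 0.967).

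Outside the endothelium, Mfsd2a had a difference between genotypes that was large against the spread between replicates. In astrocytes it was at 136 and 128 CPM in Ms4a3 cKO, against 27.3 and 24.8 CPM in Flox control. The 2 values of Ms4a3 cKO were close to each other and far above the 2 of Flox control. The log2 fold change was 2.31 ± 0.24 (SE; edgeR adjusted p = 0.0906), which did not pass. Of 11386 genes tested in astrocytes none passed (0%), with 1927 at an unadjusted p under 0.05. DESeq2, which called 188 astrocyte genes (1.65%), gave an adjusted p of 3.13e-05. Its quotient to endothelial markers in astrocytes was 480 and 192 in Ms4a3 cKO and 369 and 100.2 in Flox control, so its level there was far above that of endothelial RNA.

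The astrocyte class was made of 2 clusters, and the difference was seen in both. In cluster 20, led by Slc6a11, Etnppl, Cldn10 and Gjb6, Mfsd2a was at 333 and 259 CPM in Ms4a3 cKO (168 and 269 UMIs), against 42.4 and 91.1 CPM in Flox control (15 and 42 UMIs). In cluster 16, whose leading genes include Gfap and Thbs4, it was at 37.5 and 30.0 CPM in Ms4a3 cKO, against 9.82 and 7.80 CPM in Flox control. Cluster 20 held 230 and 412 of the astrocytes of Ms4a3 cKO and 130 and 147 of those of Flox control, so its share was not higher in both Ms4a3 cKO libraries. Oligodendrocytes showed the same order at lower levels, with 13.8 and 18.8 CPM in Ms4a3 cKO, against 1.45 and 2.72 CPM in Flox control (log2 fold change 2.76 ± 0.45, edgeR adjusted p = 0.0819; DESeq2 adjusted p = 0.000959, beside 6.18% of genes called by DESeq2 there). Within oligodendrocyte cluster 10 it was at 21.7 and 19.3 CPM in Ms4a3 cKO, against 1.27 and 1.98 CPM in Flox control, and within cluster 13 at 8.21 and 18.5 CPM against 5.91 CPM (1 UMI) and 7.63 CPM. In oligodendrocyte precursors Mfsd2a was at 32.1 and 35.2 CPM in Ms4a3 cKO and at 34.0 and 23.1 CPM in Flox control, where the groups overlapped.

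In endothelial cells the groups overlapped for Mfsd2a, and the genotype difference in endothelial cells minus that in astrocytes was -2.34 ± 0.38 for Mfsd2a (SE; edgeR adjusted p = 0.112), which did not pass. In that fit 7 of 12650 genes (0.0553%) were called and none of the 10 barrier genes. Without Ms4a3 cKO 1 the difference was -2.06 (edgeR adjusted p = 0.0217) and without Ms4a3 cKO 2 it was -2.66 (edgeR adjusted p = 0.000844), and both were called. Without Flox control 1 it was -2.03 (edgeR adjusted p = 0.261) and without Flox control 2 it was -2.74 (edgeR adjusted p = 0.168), and neither was called.

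**Figure D4:**
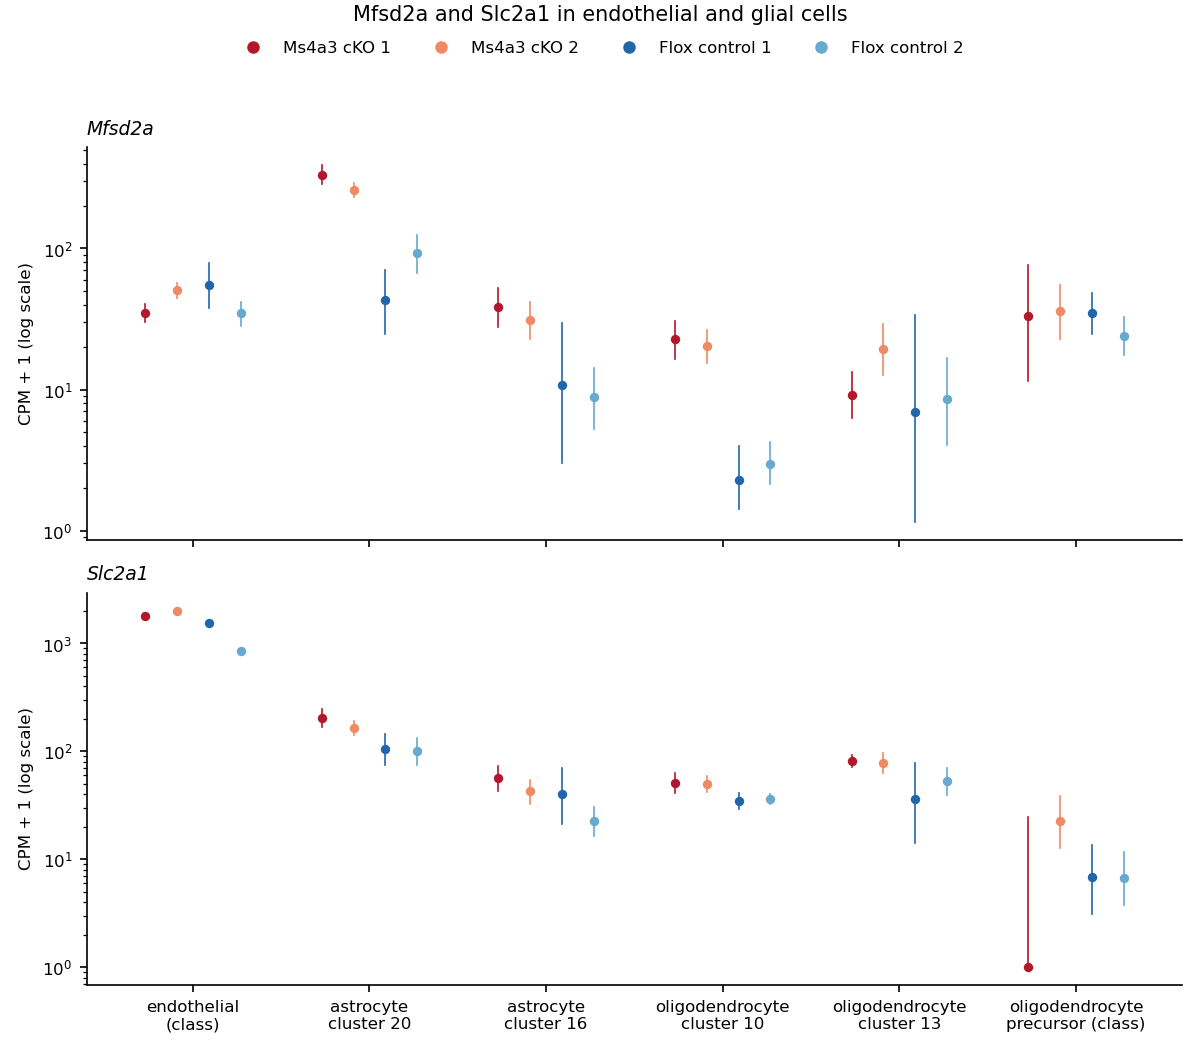
Mfsd2a (top) and Slc2a1 (bottom) as CPM + 1 on a log axis in endothelial cells, 2 astrocyte clusters, 2 oligodendrocyte clusters and oligodendrocyte precursors, 1 point per library with its exact 95% Poisson interval. In astrocyte cluster 20 Mfsd2a is at 333 and 259 CPM in Ms4a3 cKO and at 42.4 and 91.1 CPM in Flox control, while the libraries overlap in endothelial cells.

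Slc2a1 was higher in Ms4a3 cKO in several classes, each taken from the same 4 libraries. In astrocytes it was at 105 and 93.6 CPM in Ms4a3 cKO, against 74.3 and 37.7 CPM in Flox control (log2 fold change 0.83 ± 0.38, edgeR adjusted p = 0.342). In oligodendrocytes it was at 70.0 and 57.3 CPM in Ms4a3 cKO, against 33.3 and 36.9 CPM in Flox control (log2 fold change 0.69 ± 0.21, edgeR adjusted p = 0.168). Of 6 classes with at least 20 UMIs of Slc2a1 in every library, both Ms4a3 cKO libraries lay above both Flox control libraries in 4. In microglia and neutrophils the groups overlapped. None of these differences passed by edgeR. In endothelial cells, 1 of the 4, 21.8% of all genes had this order, and the share was not counted in the other classes. The count is therefore a description. Microglia were at 23.0 and 22.1 CPM in Ms4a3 cKO and at 23.4 and 19.4 CPM in Flox control. The share of endothelial cells was also higher in both Ms4a3 cKO libraries, at 11.7 and 11.98%, against 1.10 and 5.46% in Flox control. Within Flox control, the library with the smaller share had the higher Slc2a1 in astrocytes and the lower in oligodendrocytes. The part of this share in the classes outside the endothelium was not tested. The quotient to endothelial markers in oligodendrocytes was 4.35 and 4.55 in Ms4a3 cKO and 36.6 and 10.5 in Flox control. Each value is above that of endothelial RNA, which describes the level of Slc2a1 and not its difference between genotypes. The summed markers were at 158 and 130 CPM in oligodendrocytes of Ms4a3 cKO and at 16.4 and 70.4 CPM in those of Flox control. Their part in the difference was not tested.

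Slco1a4 in microglia was at 9.16 and 13.7 CPM in Ms4a3 cKO, against 0.767 and 3.96 CPM in Flox control, with quotients to endothelial markers of 0.98 and 1.13 in Ms4a3 cKO and 0.11 and 0.70 in Flox control. The order of the 4 libraries by this level was that of their endothelial cell numbers, 1749 and 1833 against 146 and 881. The summed endothelial markers in microglia had another order, at 73.7 and 75.8 CPM in Ms4a3 cKO and 58.7 and 57.3 CPM in Flox control. The part of endothelial RNA in this difference was not tested. In choroid plexus the order of the libraries by Slco1a4 was also another. It was at 82.7 and 90.4 CPM there in Ms4a3 cKO and at 151 and 90.3 CPM in Flox control. Across the 10 other classes tested, none of the 10 genes was called by edgeR in any, where 119 genes (1.35%) were called in border macrophages, 2 (0.0238%) in choroid plexus and 0 in the other 8. DESeq2 made 5 calls, Mfsd2a in astrocytes and oligodendrocytes, and Slco1a4 in microglia, fibroblasts and oligodendrocytes (log2 fold changes 2.19, 2.51 and 2.84). The share of all genes that DESeq2 called was 2.02% in microglia and 1.89% in fibroblasts. It was 2.26% in monocyte-macrophages, 2.1% in border macrophages, 0.622% in dendritic cells, 0.892% in neutrophils, 0.226% in choroid plexus and 0% in neuroblasts or neurons, where no barrier gene was called. In the edgeR fits the library left out mattered. For Slco1a4 in border macrophages the log2 fold change was 2.75 with all 4 libraries and 7.64 without Flox control 2. That fit had Flox control 1 as its only control, with 0 CPM of this gene.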

How the data were processed

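The authors deposited 1 table of UMI counts per library, made from BD Rhapsody libraries per the labels. The submitters' processing notes name fastp 0.24.0, STARsolo (version not given) and the mouse build mm10. The 4 tables held 63181 barcodes. A barcode needed 500 UMIs, 250 genes and a mitochondrial share under 20% to be kept (60942 were), and Scrublet in scanpy 1.11.5 marked 1388 as doublets, which were removed. Of the barcode sequences, 15 were seen in more than 1 library, and none of these was an endothelial cell in 2 libraries. Cells were clustered with Leiden (leidenalg 0.10.2; 2000 variable genes, 30 components, resolution 1) without the 10 barrier genes, and clusters were named from marker lists. A cluster stayed unnamed if its leading genes went against its name, its best scores were nearly tied, few of its markers were detected or its depth was low. Unnamed clusters were in none of the classes compared, and their sizes differed between libraries. Cluster 11, which scored highest for oligodendrocytes, held 702 and 1263 cells of Ms4a3 cKO and 0 and 7 of Flox control. Clusters 2 and 4, which scored highest for border macrophages, held 3310 cells of Flox control 2 and 2722 of Flox control 1.

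Counts were summed per library and class and compared with edgeR 4.0.16 (quasi-likelihood test, TMM scaling, filterByExpr, Benjamini-Hochberg adjusted p under 0.05) over all genes, in classes with at least 50 cells per library and subtypes with at least 20. DESeq2 1.42.0 was an alternative. The edgeR script was tested on simulated data. CPM intervals are exact Poisson intervals at 95% and a count of 0 allows up to 3 UMIs; both cover counting error only. Library depths were 77580518 and 84397197 UMIs in Ms4a3 cKO and 105566650 and 105545311 in Flox control.

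The members and gene lists were chosen with earlier results of these data known. All 10 members are named, with the genes of each list that passed or, with none, the 4 with the smallest p, the 3 genes most like each member, and Htr2b. A few genes that this rule names are not reported here. The labels do not say that same-numbered libraries were paired, so replicate number was not used in the main fit. Deviations of same-numbered libraries from their group means had r = -0.15 over 11313 genes. With 2 libraries a group the crossed pairs must give the same value with the opposite sign, so this r cannot decide whether libraries were paired.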

Additional observations from a re-analysis of the deposited data

Results flagged for a closer look

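Some genotype differences ran in opposite directions in different cells, with both Ms4a3 cKO libraries on 1 side of both Flox control libraries in each. Whether these differences differ from each other was not tested. For Tjp1 the log2 fold change, Ms4a3 cKO over Flox control, was 0.71 in fibroblasts, where both Ms4a3 cKO libraries were higher. It was -0.38 in microglia, -0.46 in oligodendrocytes, -0.28 in neuroblasts or neurons and -0.07 in interferon-like endothelial cells, where both were lower. For Slc7a5 it was 0.12 in astrocytes and 0.99 in oligodendrocytes, against -0.38 in fibroblasts and -0.66 in interferon-like endothelial cells. For Abcb1a it was 0.28 in interferon-like endothelial cells and -1.07 in monocyte-macrophages. None of these 11 values passed the adjusted threshold by edgeR. With 2 libraries a group, such orders are common: in endothelial cells 21.8% of all genes had both Ms4a3 cKO libraries above and 17.1% below.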

How the results depend on the processing

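In all endothelial cells no barrier gene was called in any of 19 alternatives, and endothelial cells stayed highest for 9 of 10 genes in all 7. The number of endothelial genes called was 0 in the edgeR test, 55 with DESeq2, 36 with replicate numbers crossed, 18 without interferon-like cells, 4 with cells thinned to 1000 UMIs, 7 with the replicate block, and between 0 and 8 with 1 library left out. Crossing the numbers, leaving out interferon-like cells and the coarser sub-clusters were chosen after seeing the data. In the interferon-like subtype 35 genes were called, against 21 with a mean of at least 50 counts, 173 with no filter, 9 with the replicate block, 4 in capillary-like cells of coarser sub-clusters, and between 0 and 94 with 1 library left out (94 without Ms4a3 cKO 1, 2 without Ms4a3 cKO 2, 93 without Flox control 1 and 0 without Flox control 2). Between 0 and 1 barrier genes were called there with 1 library left out, Slc2a1 without Flox control 1. For endothelial cells against astrocytes the counts were 7 genes, 0 with a mean of at least 50 counts, 369 with no filter and between 0 and 168 with 1 library left out. Barrier genes called there numbered 1 with no filter and between 0 and 1 with 1 library left out. In the other classes 0 calls of barrier genes became 5 with DESeq2, 9 with no filter, 1 with the replicate block and between 0 and 13 with 1 library left out. Calls among all genes rose in the same fits. With no filter they lay between 90 (choroid plexus) and 1588 (oligodendrocytes) per class, against between 0 and 119 in the main fit. With the replicate block border macrophages, the class of the 1 barrier call, had 333. Without Flox control 2, the fit that gave the 13, more of all genes were called in each class but astrocytes. Whether barrier genes were called more often than other genes was not tested. The cause of these shifts was not tested. Mfsd2a kept a positive log2 fold change in astrocytes, between 2.21 and 2.39 in 9 alternatives, with adjusted p between 1.36e-09 and 0.285. No called value changed sign. Of the uncalled endothelial log2 fold changes, Slc2a1, Slc7a5 and Slco1c1 kept their sign in all 19 alternatives, and the other 7 changed it in at least 1. Depth limits the low genes: Flox control 1 had 552129 endothelial UMIs, of which 1 was Plvap.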
